A study of Homo sapiens with 9 samples.

Results

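The cells were HCT116, an established human colorectal cancer line, transfected with siRNA 1 or with a control siRNA, and the comparison was between the 3 siRNA 1 libraries and the 3 control siRNA libraries of the 9 libraries in the series. The members were all genes of the deposited count table, of which 20868 of 61806 identifiers had enough counts to be tested. Both groups were cultured in the same medium, transfected by lipofection with Lipofectamine RNAiMax, extracted with Trizol, and carry the batch entry of day 3 in the labels. The siRNA 1 group received an siRNA that targets EXOSC10-AS1, a lncRNA (long non-coding RNA) gene antisense to EXOSC10. The control group received the control siRNA in its place. The other 3 libraries received siRNA 2, directed against the same RNA. The labels state neither the dose, nor the siRNA sequences, nor whether replicates were transfected separately, so p-values measure the spread between these libraries, which may be technical. Results rest on 1 line and 1 siRNA.

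Small interfering RNAs guide the Argonaute-containing silencing complex to transcripts that match their sequence. EXOSC10 is a 3′ to 5′ exonuclease of the nuclear RNA exosome, which trims and degrades many nuclear RNAs. HCT116 cells cycle rapidly in culture and keep an epithelial form, so genes of DNA replication, growth signalling and cell adhesion are abundant in them.

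Levels are CPM, read counts put on a common library size, with the TMM-scaled sum of tested genes as each library's size. Depth was 56.8 to 66.5 M counts per library. Differences are log2 changes, siRNA 1 minus control, with an approximate standard error after ±. This error was derived from the test, as the absolute change divided by the square root of its F statistic. A gene was called at a Benjamini-Hochberg adjusted p under 0.05 in edgeR's quasi-likelihood test over all tested genes. The 3 siRNA 1 libraries did not lie equally close together. Replicate 1 stood apart: across 12394 genes its difference from control correlated with GC content at 0.580, against -0.0896 and -0.0852 in replicates 2 and 3 and -0.042 to 0.060 in the controls, over genes, which are not independent replicates. Each control was compared with a mean that includes it, so the control values are not a like reference. In replicate 1 the median log2 difference was -0.68 over the tenth of genes lowest in GC and 0.24 over the tenth highest. Results without it are therefore also given for the calls over all genes, for most gene lists and for some of the named genes. The colon epithelial markers were measured, with 9 of 12 tested and KRT8, KRT18, KRT19, EPCAM and CDH1 among them, while VIL1, LGALS4 and CDX1 had too few counts to test and CDX1 was at 0. Their summed level was 4508 to 5319 CPM with siRNA 1 and 5292 to 5396 CPM in the controls. Of the markers of other cell types, 3 of 10 fibroblast, 5 of 10 leukocyte, 1 of 5 endothelial and 5 of 10 neural and liver genes were tested. PTPRC, CD3E, PDGFRA, FAP, CDH5, APOB and TTR were at 0 in all 6 libraries. The summed level with siRNA 1 and in the controls was 46.7 to 52.4 and 59.3 to 61.2 CPM for fibroblast markers, 1.22 to 1.64 and 2.42 to 3.10 CPM for leukocyte markers, 0.662 to 0.756 and 1.07 to 1.29 CPM for the endothelial marker VWF, and 54.3 to 67.0 and 89.0 to 98.8 CPM for neural and liver markers, of which SYT1 and SERPINA1 fell. Their part in the results was not tested.

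The targeted RNA was near the limit of detection. EXOSC10-AS1 (ENSG00000230337) had 4, 0 and 0 counts in the siRNA 1 libraries, against 26, 4 and 14 counts in the controls. Replicate 1 with siRNA 1 thus had as many counts as the lowest control, while the other siRNA 1 libraries had none, and a count of 3 is the limit that a count of 0 allows. Counts of 4, of which 2 are given here, were in excess in the table: on average a library held 1365 genes at 4, 822 at 3 and 501 at 5. Its log2 change was -3.40 ± 1.45 (adjusted p = 0.191), and without siRNA 1 replicate 1, which leaves siRNA 1 at 0, adjusted p = 0.101. A loss was thus not called, while its unadjusted p was 0.0413. EXOSC10 (ENSG00000171824) stood at 103, 89.3 and 91.4 CPM in the siRNA 1 libraries, against 94.1, 89.7 and 88.7 CPM in the controls. The groups overlapped and EXOSC10 was not called (0.06 ± 0.07, adjusted p = 0.683). Part of the transcript cannot be told from EXOSC10 where the counting strand is unknown, which is why its start is shown. GENCODE lists a transcript of 440 bases on the plus strand (GRCh38, chr1:11099675-11102100), of which 94 lie within exons of EXOSC10 on the other strand, and those bases are in capitals in its first 300 bases. Another listed transcript, of 487 bases, has 161 (33.1%) within those exons.
EXOSC10-AS1: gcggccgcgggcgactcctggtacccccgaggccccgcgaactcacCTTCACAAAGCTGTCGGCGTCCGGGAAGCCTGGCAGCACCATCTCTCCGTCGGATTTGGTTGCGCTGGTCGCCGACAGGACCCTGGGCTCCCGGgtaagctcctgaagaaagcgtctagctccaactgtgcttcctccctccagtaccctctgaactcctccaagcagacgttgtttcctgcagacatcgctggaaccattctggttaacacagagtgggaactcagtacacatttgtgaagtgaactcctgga

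In all, 1478 genes (7.08% of those tested) were called, 777 higher with siRNA 1 (3.72%) and 701 lower (3.36%). Most changes were small. The median absolute log2 change of the called genes was 0.51, and 59 rose and 114 fell at least 2-fold. Without siRNA 1 replicate 1, 2538 of 21691 genes were called (11.7%), 1337 higher (6.16%) and 1201 lower (5.54%), and 93.2% of the 1478 calls were made again in the same direction, with 0 in the opposite direction. Among the 4040 genes lowest in GC, 42 rose and 161 fell with it, and 300 rose and 273 fell without it. Leaving out a control library left 476, 439 and 452 calls, and leaving out siRNA 1 replicate 2 or 3 left 890 and 845. Groups did not overlap in CPM for 34.7% of all tested genes, 17% being higher with siRNA 1 and 17.8% lower, and 1477 of the 1478 called genes did not overlap, so absence of overlap adds no support to a call. With the GC trend of each library removed, 4106 genes (19.7%) were called, 9.4% higher and 10.3% lower, and 98.0% of the 1478 calls were made again. Of the list members averaging 2 or more on the log2 CPM scale, 252 were called in both fits, 143 only without replicate 1 and 3 only with it.

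**Figure D1:**
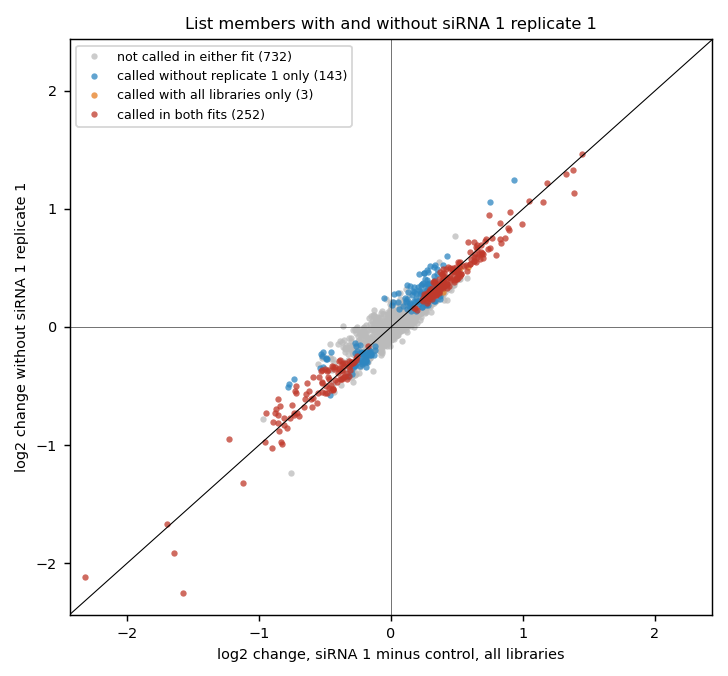
Log2 change of 1130 list members, siRNA 1 minus control, in the fit with all libraries (x axis) and without siRNA 1 replicate 1 (y axis), 1 point per gene, coloured by call, with the line of equality. The 252 members called in both fits follow the line, and 143 were called only without replicate 1. Of the members called in either fit, 1 has opposite signs in the fits.

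The genes with the largest changes were taken from those averaging 2 or more on the log2 CPM scale, called also without replicate 1 and separate between groups. S100A14, a calcium-binding protein of epithelia, stood at 99.5, 88.2 and 90.3 CPM in the siRNA 1 libraries, against 36.98, 35.9 and 34.3 CPM in the controls. All siRNA 1 libraries lay far above all controls, and S100A14 rose by 1.38 ± 0.07 (adjusted p = 7.33e-05). SCG2, the secretogranin II precursor of secretory granules, stood at 23.4, 25.1 and 23.5 CPM in the siRNA 1 libraries, against 8.51, 9.31 and 8.62 CPM in the controls. SCG2 rose by 1.45 ± 0.11 (adjusted p = 0.000198), the largest of these rises, with little spread in either group.

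AGA, the lysosomal enzyme that splits asparagine from sugar chains, stood at 10.9, 10.99 and 9.42 CPM in the siRNA 1 libraries, against 3.95, 4.41 and 4.16 CPM in the controls. AGA rose by 1.32 ± 0.12 (adjusted p = 0.00047). PCK2, the mitochondrial phosphoenolpyruvate carboxykinase, stood at 50.5, 45.04 and 39.4 CPM in the siRNA 1 libraries, against 21.3, 19.97 and 19.6 CPM in the controls. PCK2 rose by 1.15 ± 0.13 (adjusted p = 0.00159). Replicate 1 was the highest siRNA 1 library for PCK2, and without it the log2 change was 1.06 (adjusted p = 0.00125). ARRDC4, an arrestin-domain protein that lowers glucose uptake, stood at 36.1, 44.6 and 45.7 CPM in the siRNA 1 libraries, against 20.7, 18.9 and 16.9 CPM in the controls. Here replicate 1 was the lowest siRNA 1 library, and ARRDC4 rose by 1.16 ± 0.11 (adjusted p = 0.000723; 1.27 without replicate 1). DHRS2, a short-chain dehydrogenase, rose by 1.09 ± 0.10 (adjusted p = 0.000555) and HABP4, an RNA-binding protein that also binds hyaluronan, by 1.13 ± 0.09 (adjusted p = 0.000324).

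The transcription factor MYB stood at 6.41, 7.84 and 5.99 CPM in the siRNA 1 libraries, against 2.24, 3.32 and 3.35 CPM in the controls. MYB rose by 1.18 ± 0.20 (adjusted p = 0.00753). Its levels were low in both groups. RGS16, which speeds the switching-off of G proteins, rose by 1.38 ± 0.27 (adjusted p = 0.0148), with siRNA 1 replicate 1 at 9.92 CPM and the others at 6.73 and 5.82 CPM, and its call was lost without control replicate 2 or 3 (adjusted p up to 0.0623). GRAMD2A, a protein of contacts between endoplasmic reticulum and plasma membrane, rose by 1.24 ± 0.16 (adjusted p = 0.00216), C19orf33 by 1.16 ± 0.17 (adjusted p = 0.00409) and KIAA0319 by 1.11 ± 0.13 (adjusted p = 0.00153).

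The largest falls were in genes of low level. SPARC, a secreted matrix protein, stood at 0.657, 0.998 and 1.16 CPM in the siRNA 1 libraries, against 4.77, 5.10 and 4.22 CPM in the controls. SPARC fell by 2.32 ± 0.20 (adjusted p = 0.000363). RPE65, the retinoid isomerohydrolase of the visual cycle, stood at 2.23, 2.79 and 2.29 CPM in the siRNA 1 libraries, against 9.49, 8.77 and 9.64 CPM in the controls. RPE65 fell by 1.93 ± 0.14 (adjusted p = 0.000198). KRT7, a simple epithelial keratin, stood at 3.11, 3.24 and 3.33 CPM in the siRNA 1 libraries, against 11.01, 10.001 and 10.3 CPM in the controls. KRT7 fell by 1.70 ± 0.12 (adjusted p = 0.000182). For these 3 genes every siRNA 1 library lay far below the lowest control, and absence of overlap was a condition of their choice.

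TGM2, tissue transglutaminase, was more abundant. It stood at 48.4, 44.7 and 42.5 CPM in the siRNA 1 libraries, against 107, 109.6 and 109.9 CPM in the controls. TGM2 fell by 1.27 ± 0.07 (adjusted p = 7.33e-05; -1.32 without replicate 1). Of 29 tested muscle-type contractile genes 4 rose and 6 fell (4 and 7 without siRNA 1 replicate 1, and 1 to 3 fell with another library left out). Thus 34.5% were called, against 7.08% of all tested genes. DES, the muscle intermediate filament, fell by 1.65 ± 0.25 (adjusted p = 0.00505) and TNNC1, cardiac troponin C, by 1.58 ± 0.37 (adjusted p = 0.0314). For TNNC1, replicate 1 was the highest siRNA 1 library at 2.33 CPM against 0.655 and 0.993 CPM, the call was lost on leaving out any other siRNA 1 library or any control (adjusted p up to 0.116), and without replicate 1 the log2 change was -2.26 (adjusted p = 0.000393). SSC4D, a scavenger receptor domain protein, fell by 1.56 ± 0.22 (adjusted p = 0.00371), and APOLD1, an endothelial early-response gene that shares exonic sequence with DDX47 on its own strand, by 1.48 ± 0.22 (adjusted p = 0.0042).

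Several falls concern genes whose exons overlap others. TNFRSF6B, a soluble decoy receptor for FAS ligand, stood at 102, 36.2 and 62.2 CPM in the siRNA 1 libraries, against 177, 162 and 179.8 CPM in the controls. TNFRSF6B fell by 1.37 ± 0.34 (adjusted p = 0.0413). The siRNA 1 libraries spread almost 3-fold, the call was lost without any control or siRNA 1 replicate 2 or 3 (adjusted p up to 0.127), and the gene shares exons with the read-through gene RTEL1-TNFRSF6B. LEPR, the leptin receptor, shares exons with LEPROT, stood at 3.19, 8.62 and 5.84 CPM in the siRNA 1 libraries, against 14.7, 15.4 and 14.8 CPM in the controls. LEPR fell by 1.35 ± 0.27 (adjusted p = 0.0169). Its call was lost without any control or siRNA 1 replicate 3 (adjusted p up to 0.0653). The read-through gene RPL17-C18orf32 fell by 1.29 ± 0.22 (adjusted p = 0.00789), and ENSG00000233589, antisense to DEPDC1, by 1.83 ± 0.24 (adjusted p = 0.00236). Reads of these genes could have been counted for their partners. Exons also overlap on the opposite strand for SPARC (CLMAT3), TGM2 (RPRD1B), SSC4D (ZP3) and HABP4 (CDC14B). The same holds for CCND1 (LTO1), FTH1 (BEST1) and FANCI (POLG), among others, and the counting strand is unknown.

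**Figure D2:**
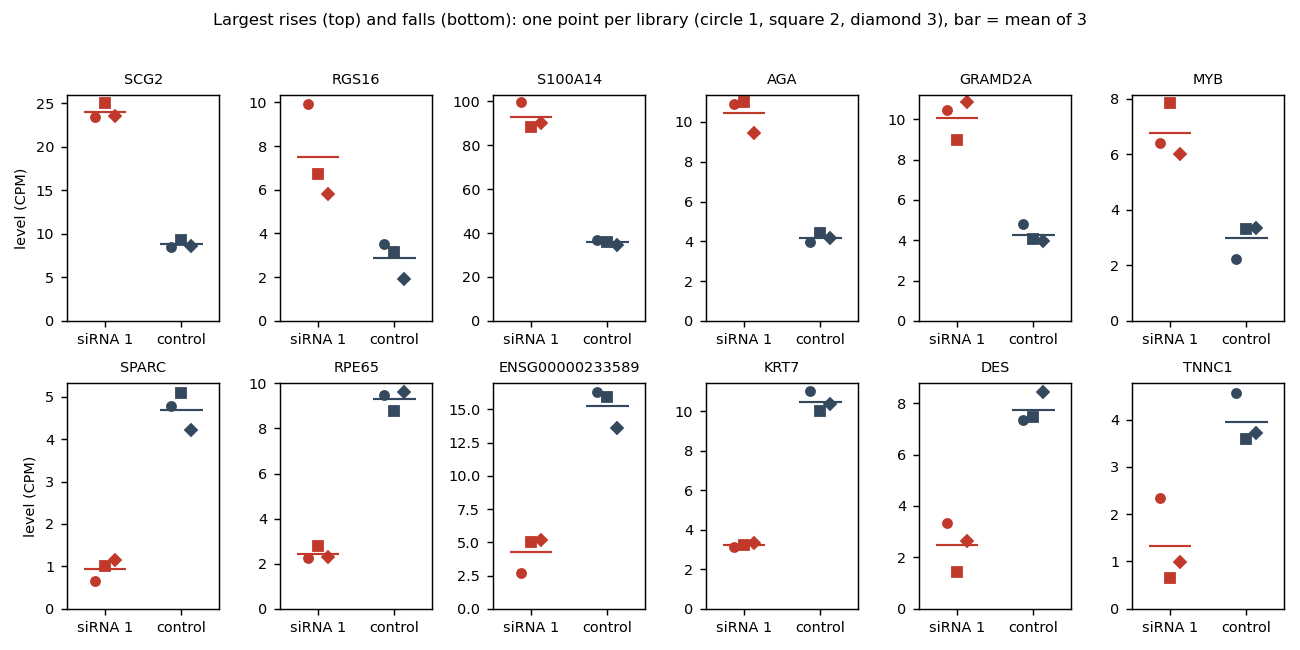
Levels in CPM (y axis, linear from 0) of the 6 largest rises (top row) and the 6 largest falls (bottom row) in each siRNA 1 and control library, with a bar at the mean of the 3 libraries. The genes were chosen for groups that do not overlap. For TNNC1, RGS16, S100A14 and DES replicate 1 lies above the other siRNA 1 libraries, and for ENSG00000233589 it lies far below them.

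Many genes of DNA replication rose with siRNA 1. Of 16 tested licensing genes, which load the replicative helicase onto origins, 6 rose and 0 fell (median log2 change 0.27, against -0.02 over all tested genes). Of 31 replisome genes, 10 rose and 1 fell (median 0.25), and of 13 genes of deoxynucleotide synthesis 5 rose and 0 fell (median 0.28). CPM are shares of the RNA of all cells in a dish, so more RNA per cell and more cells in S phase cannot be told apart. Without siRNA 1 replicate 1 the counts that rose were 10, 16 and 8. In that fit 6.16% of all tested genes rose and 5.54% fell, the shares to set beside each count given without this library.

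RRM2, the small subunit of ribonucleotide reductase, stood at 540.1, 669 and 647 CPM in the siRNA 1 libraries, against 403, 406 and 393 CPM in the controls. RRM2 rose by 0.63 ± 0.08 (adjusted p = 0.00196). PCNA, the sliding clamp of the replicative polymerases, stood at 326, 340.4 and 328 CPM in the siRNA 1 libraries, against 236, 241 and 242 CPM in the controls. PCNA rose by 0.47 ± 0.06 (adjusted p = 0.0024). CDC45, a part of the replicative helicase, stood at 40.3, 37.3 and 37.3 CPM in the siRNA 1 libraries, against 25.6, 23.6 and 25.02 CPM in the controls. CDC45 rose by 0.63 ± 0.08 (adjusted p = 0.00236). The calls of these 3 genes held with any 1 library left out (highest adjusted p 0.0184, 0.024 and 0.0232). GINS2 and GINS4, further helicase parts, rose by 0.60 ± 0.10 (adjusted p = 0.00903) and 0.53 ± 0.09 (adjusted p = 0.00974), and POLA1, the catalytic subunit of the primase polymerase, by 0.48 ± 0.08 (adjusted p = 0.00792). The call of GINS2 was lost without control replicate 2 (adjusted p = 0.0512), that of GINS4 without control replicate 2 or 3 (up to 0.0602) and that of POLA1 without control replicate 1 or 2 (up to 0.0522).

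MCM3, a subunit of the helicase ring, stood at 219.9, 200.2 and 196 CPM in the siRNA 1 libraries, against 156, 157 and 163 CPM in the controls. MCM3 rose by 0.37 ± 0.07 (adjusted p = 0.0107). ORC1, which marks origins, stood at 32.8, 30.4 and 29.9 CPM in the siRNA 1 libraries, against 22.4, 23.5 and 21.1 CPM in the controls. ORC1 rose by 0.47 ± 0.09 (adjusted p = 0.0108). MCM3 was not called without any 1 of the controls, and ORC1 not without control replicate 1 or 3 (adjusted p up to 0.0716 for both). With 1 library left out at a time, between 0 licensing genes (without control replicate 1 or 3) and 10 (without siRNA 1 replicate 1) rose. For the replisome this range was 2 (without control replicate 2) to 16, and for deoxynucleotide synthesis 1 (without control replicate 1) to 8, the upper ends again without siRNA 1 replicate 1.

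Regulators of the cell cycle moved in both directions. Of 29 tested E2F, cyclin and cell cycle kinase genes 5 rose and 3 fell (median 0.13; 11 and 4, median 0.23, without siRNA 1 replicate 1, and 3 rose without any 1 control). CDC25A, the phosphatase that activates cyclin-dependent kinases at entry into S phase, stood at 44.5, 45.3 and 41.2 CPM in the siRNA 1 libraries, against 25.6, 25.96 and 25.6 CPM in the controls. CDC25A rose by 0.76 ± 0.07 (adjusted p = 0.000629). E2F2, a transcription factor of S phase genes, stood at 38.6, 33.2 and 32.4 CPM in the siRNA 1 libraries, against 20.4, 22.8 and 21.2 CPM in the controls. E2F2 rose by 0.69 ± 0.09 (adjusted p = 0.00288). CCND1, cyclin D1, which drives cells out of G1, went the other way: it stood at 692, 888 and 877 CPM in the siRNA 1 libraries, against 1489, 1501 and 1463 CPM in the controls. CCND1 fell by 0.86 ± 0.09 (adjusted p = 0.000774; -0.75 without replicate 1). CDKN1B, the inhibitor p27, stood at 30.3, 35.3 and 36.2 CPM in the siRNA 1 libraries, against 52.8, 54.2 and 49.9 CPM in the controls. CDKN1B fell by 0.62 ± 0.08 (adjusted p = 0.00268). None of these 4 calls was lost with any 1 library left out.

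Of 30 mitosis genes, 3 rose and 0 fell (median 0.17; 9 and 1 without siRNA 1 replicate 1, and 1 rose without any 1 control). BIRC5, survivin, stood at 150.0, 147 and 143 CPM in the siRNA 1 libraries, against 115, 113 and 111 CPM in the controls. BIRC5 rose by 0.38 ± 0.06 (adjusted p = 0.00565), and MKI67, the marker of cycling cells, rose by 0.35 ± 0.07 (adjusted p = 0.0127; lost without any 1 control, up to 0.0698). Among 23 genes of homologous recombination and the Fanconi pathway, 8 rose and 0 fell (median 0.29; 14 and 0 without siRNA 1 replicate 1, and 3 to 4 rose without a control). EXO1, a nuclease that resects DNA ends, stood at 48.2, 52.1 and 52.3 CPM in the siRNA 1 libraries, against 32.2, 34.04 and 34.8 CPM in the controls. EXO1 rose by 0.60 ± 0.07 (adjusted p = 0.00187). FANCI, a subunit of the Fanconi clamp, stood at 143, 148 and 143 CPM in the siRNA 1 libraries, against 111, 112 and 109.5 CPM in the controls. FANCI rose by 0.39 ± 0.06 (adjusted p = 0.00488). All siRNA 1 libraries were above all controls for both repair genes, but groups were also separate for 1477 of the 1478 called genes.

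Many genes of amino acid supply rose with siRNA 1. Of 20 tested genes for serine, glycine, asparagine and proline synthesis 10 rose and 0 fell (median 0.29), of 16 stress regulators 6 rose and 0 fell (median 0.30), of 19 amino acid transporters 7 rose and 2 fell (median 0.31), and of 20 cytosolic aminoacyl-tRNA synthetases 7 rose and 3 fell (median 0.22). Many of these genes are known targets of ATF4, the factor translated when amino acids run short or the endoplasmic reticulum is stressed. Without siRNA 1 replicate 1 the counts that rose were 11, 7, 7 and 12, those that fell 0, 1, 2 and 3, and the medians 0.24, 0.15, 0.20 and 0.22. With other libraries left out they were never below 4, 2, 4 and 1 (all reached without control replicate 1).

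ASNS, asparagine synthetase, stood at 220.0, 232 and 227 CPM in the siRNA 1 libraries, against 113, 109 and 107 CPM in the controls. ASNS rose by 1.04 ± 0.07 (adjusted p = 0.000133). The groups were about 2-fold apart with little spread, and ASNS shares exonic sequence with ENSG00000284707 on its own strand. PSAT1, of serine synthesis, stood at 158, 170.2 and 169.8 CPM in the siRNA 1 libraries, against 110.1, 102 and 105 CPM in the controls. PSAT1 rose by 0.65 ± 0.07 (adjusted p = 0.000829). GOT1, the cytosolic aspartate aminotransferase, stood at 137, 124 and 122 CPM in the siRNA 1 libraries, against 88.5, 82.6 and 86.9 CPM in the controls. GOT1 rose by 0.57 ± 0.07 (adjusted p = 0.00184). TRIB3, a pseudokinase induced by ATF4, stood at 81.6, 64.9 and 66.3 CPM in the siRNA 1 libraries, against 35.7, 40.1 and 40.96 CPM in the controls. TRIB3 rose by 0.87 ± 0.12 (adjusted p = 0.00363). ATF4 itself stood at 406, 364 and 365 CPM in the siRNA 1 libraries, against 305, 296 and 308 CPM in the controls. ATF4 rose by 0.32 ± 0.07 (adjusted p = 0.0181), a call lost without any 1 control (up to 0.106). ATF3, a stress-induced factor, rose by 0.51 ± 0.08 (adjusted p = 0.00639), and CHAC1, which degrades glutathione, by 0.90 ± 0.16 (adjusted p = 0.00881; lost without control replicate 1 or 3, up to 0.0527).

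SLC7A5 and SLC3A2 are the light and heavy chains of a transporter of large neutral amino acids. SLC7A5 stood at 890.5, 770.0 and 759.6 CPM in the siRNA 1 libraries, against 474, 480.0 and 489 CPM in the controls. SLC7A5 rose by 0.75 ± 0.11 (adjusted p = 0.00364; 0.67 without replicate 1). SLC3A2 stood at 406, 348 and 343 CPM in the siRNA 1 libraries, against 216, 223 and 218 CPM in the controls. SLC3A2 rose by 0.74 ± 0.09 (adjusted p = 0.00186). For both, replicate 1 was the highest siRNA 1 library. The cationic amino acid transporter SLC7A1 rose by 0.46 ± 0.06 (adjusted p = 0.00282) and the neutral one SLC1A4 by 0.60 ± 0.09 (adjusted p = 0.00511), whereas the glutamate transporter SLC1A1 fell by 0.53 ± 0.07 (adjusted p = 0.00364). The synthetases split. AARS1, for alanine, stood at 335, 291 and 286 CPM in the siRNA 1 libraries, against 194, 196 and 201 CPM in the controls. AARS1 rose by 0.63 ± 0.08 (adjusted p = 0.00181). QARS1, for glutamine, stood at 139, 125 and 123 CPM in the siRNA 1 libraries, against 179, 188 and 181 CPM in the controls. QARS1 fell by 0.50 ± 0.08 (adjusted p = 0.00492). WARS1, for tryptophan, fell by 0.32 ± 0.06 (adjusted p = 0.0143; lost without any control or siRNA 1 replicate 3, up to 0.0842).

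**Figure D3:**
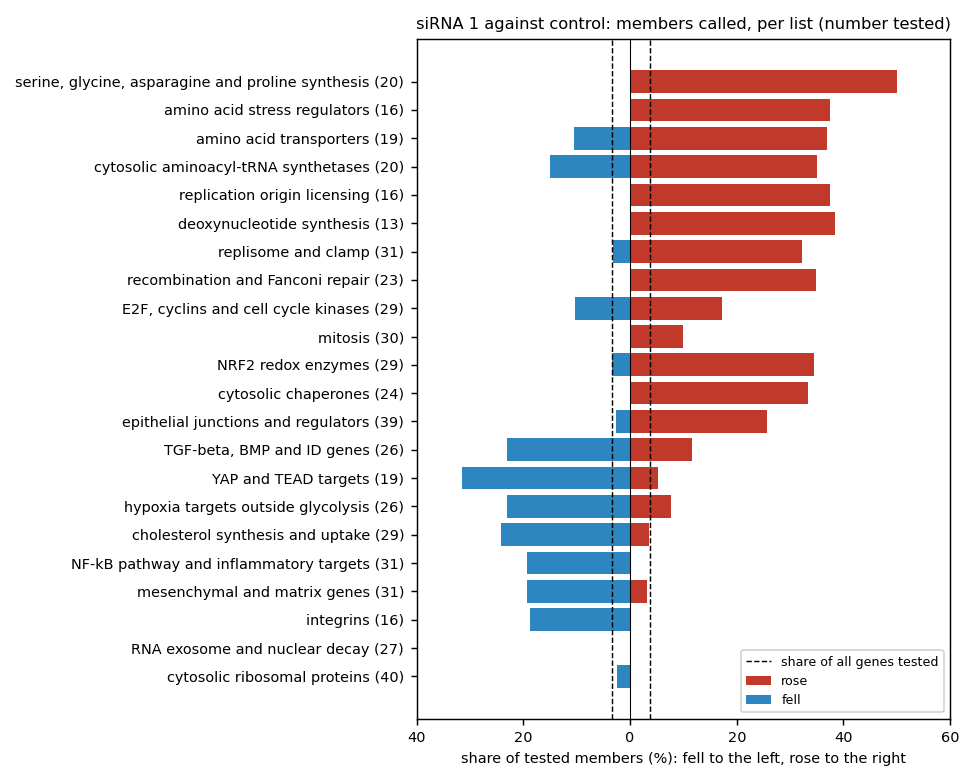
Share of the tested members of 22 gene lists (number tested in brackets) that rose (right) or fell (left) with siRNA 1, in percent on the x axis, with dashed lines at the shares over all genes, 3.72% higher and 3.36% lower. The lists on amino acids, replication and NRF2 lie to the right, and those on YAP, cholesterol and mesenchymal genes lie to the left.

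Redox, iron storage and chaperone genes also gave calls. NRF2 is the factor that switches on genes against oxidants, and of 29 tested genes of its redox programme 10 rose and 1 fell (median 0.29; 10 and 2 without replicate 1, and 4 to 7 rose with another library left out). NQO1, a quinone reductase, stood at 939, 969.6 and 975 CPM in the siRNA 1 libraries, against 585, 586 and 591 CPM in the controls. NQO1 rose by 0.71 ± 0.05 (adjusted p = 0.000149). TXNRD1, thioredoxin reductase, stood at 1106, 1206 and 1181 CPM in the siRNA 1 libraries, against 893, 905 and 913 CPM in the controls. TXNRD1 rose by 0.37 ± 0.05 (adjusted p = 0.00318), and OSGIN1, an oxidant-induced growth inhibitor, rose by 0.99 ± 0.10 (adjusted p = 0.000829). Ferritin, which stores iron, rose in both chains. FTH1 stood at 3026, 2544 and 2629.8 CPM in the siRNA 1 libraries, against 1905, 1902 and 1884 CPM in the controls. FTH1 rose by 0.53 ± 0.07 (adjusted p = 0.0024). FTL stood at 2218, 1852 and 1815 CPM in the siRNA 1 libraries, against 1284, 1251 and 1225 CPM in the controls. FTL rose by 0.65 ± 0.09 (adjusted p = 0.00288). IREB2, the iron-regulatory protein that represses ferritin translation, stood at 36.01, 52.3 and 54.5 CPM in the siRNA 1 libraries, against 84.2, 84.5 and 86.6 CPM in the controls. IREB2 fell by 0.84 ± 0.14 (adjusted p = 0.00756; -0.67 without replicate 1). Of 13 tested genes of iron storage and uptake 3 rose and 1 fell.

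Of 24 tested cytosolic chaperone genes 8 rose and 0 fell (median 0.19; 13 and 0 without replicate 1, and 3 to 7 rose with another library left out). HSP90AB1, the constitutive HSP90, stood at 3474, 3264 and 3306 CPM in the siRNA 1 libraries, against 2598, 2621 and 2611 CPM in the controls. HSP90AB1 rose by 0.36 ± 0.04 (adjusted p = 0.00133). AHSA1, which stimulates its ATPase, stood at 177, 150.5 and 156 CPM in the siRNA 1 libraries, against 104, 103 and 105 CPM in the controls. AHSA1 rose by 0.63 ± 0.07 (adjusted p = 0.00176). HSPA8, the constitutive HSP70, rose by 0.37 ± 0.05 (adjusted p = 0.00318). Chaperones of the endoplasmic reticulum gave falls in the fit with all libraries: of 22 tested, 0 rose and 4 fell (13 reached an unadjusted p under 0.05, while DESeq2 called 4 higher and 6 lower and limma-voom 0 higher and 4 lower). The falls called numbered 0 without any 1 control, 1 without siRNA 1 replicate 2, 2 without replicate 3 and 4 without replicate 1, when 2 genes also rose. With GC correction 4 rose and 6 fell. HYOU1, a chaperone of that compartment, stood at 190.4, 165 and 169.9 CPM in the siRNA 1 libraries, against 228, 220.1 and 235 CPM in the controls. HYOU1 fell by 0.38 ± 0.07 (adjusted p = 0.011), and ERN1, its stress sensor IRE1, fell by 0.40 ± 0.08 (adjusted p = 0.0147). HYOU1 was not called without any 1 library other than siRNA 1 replicate 1 (up to 0.0805), and ERN1 not without any 1 control or siRNA 1 replicate 2 (up to 0.0909).

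Of 40 ribosome biogenesis genes 5 rose and 1 fell (median 0.17; 10 and 3 without siRNA 1 replicate 1, 1 to 2 rose without a control), among them NOLC1, a nucleolar scaffold, at 351, 385 and 363 CPM in the siRNA 1 libraries, against 239, 232 and 231 CPM in the controls, which rose by 0.65 ± 0.06 (adjusted p = 0.000443). ODC1, the rate-limiting enzyme of polyamine synthesis, stood at 453, 426 and 433 CPM in the siRNA 1 libraries, against 276, 282 and 286 CPM in the controls. ODC1 rose by 0.64 ± 0.07 (adjusted p = 0.00117), and MYC rose by 0.32 ± 0.07 (adjusted p = 0.0216), which was not called without any 1 control or siRNA 1 replicate 2 (up to 0.118). Of 40 cytosolic ribosomal protein genes 0 rose and 1 fell (2.5% called, against 7.08% of all tested genes). The gene that fell was RPL15, at 784, 773 and 793 CPM in the siRNA 1 libraries, against 981, 938 and 971 CPM in the controls (-0.30 ± 0.05, adjusted p = 0.0054).

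Some genes of signalling routes fell. Of 26 tested TGF-beta, BMP and ID genes 3 rose and 6 fell (median -0.13; 3 and 8 without siRNA 1 replicate 1, and 3 to 4 fell with another library left out). SMAD3, which carries the TGF-beta signal to the nucleus, stood at 88.6, 85.4 and 89.7 CPM in the siRNA 1 libraries, against 147, 151 and 149.9 CPM in the controls. SMAD3 fell by 0.77 ± 0.06 (adjusted p = 0.000308). TGFBR2, the ligand-binding receptor, which is known to be mutated in HCT116, stood at 35.7, 37.2 and 31.6 CPM in the siRNA 1 libraries, against 56.2, 56.5 and 58.4 CPM in the controls. TGFBR2 fell by 0.71 ± 0.08 (adjusted p = 0.00151). ID2, an inhibitor of helix-loop-helix factors, stood at 35.9, 37.2 and 41.2 CPM in the siRNA 1 libraries, against 68.1, 65.3 and 67.4 CPM in the controls. ID2 fell by 0.81 ± 0.09 (adjusted p = 0.00153). The ligand BMP4 and ID3 went the other way. BMP4 stood at 187, 168 and 160.3 CPM in the siRNA 1 libraries, against 108, 106 and 108 CPM in the controls. BMP4 rose by 0.68 ± 0.07 (adjusted p = 0.00122). ID3 stood at 25.7, 20.3 and 21.5 CPM in the siRNA 1 libraries, against 15.3, 13.6 and 13.3 CPM in the controls. ID3 rose by 0.68 ± 0.11 (adjusted p = 0.00715).

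YAP and TEAD drive genes of growth and adhesion when the Hippo kinases are off. Of 19 tested targets 1 rose and 6 fell (median -0.31; 2 and 6, median -0.18, without siRNA 1 replicate 1, and 4 fell with any other library left out). AXL, a receptor kinase, stood at 47.7, 46.3 and 50.4 CPM in the siRNA 1 libraries, against 79.4, 81.4 and 79.4 CPM in the controls. AXL fell by 0.73 ± 0.07 (adjusted p = 0.00063). CCN2, a matricellular protein, stood at 5.50, 5.28 and 5.30 CPM in the siRNA 1 libraries, against 11.3, 11.04 and 8.93 CPM in the controls. CCN2 fell by 0.96 ± 0.13 (adjusted p = 0.00354), and AMOTL2, an angiomotin, fell by 0.61 ± 0.07 (adjusted p = 0.00186). The member that rose was AREG, an EGF receptor ligand, at 392.4, 409 and 416 CPM in the siRNA 1 libraries, against 297, 296 and 289 CPM in the controls (0.46 ± 0.06, adjusted p = 0.00176). Of 33 MAPK output genes 2 rose and 4 fell (2 fell with any library but siRNA 1 replicate 1 left out). Thus 18.2% were called, against 7.08% of all tested genes. SPRY4, a feedback inhibitor, fell by 0.45 ± 0.06 (adjusted p = 0.00232) and DUSP5, a nuclear ERK phosphatase, by 0.56 ± 0.09 (adjusted p = 0.00727).

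Of 31 tested NF-kB pathway and inflammatory genes 0 rose and 6 fell (median -0.26; 1 and 9 without replicate 1, and 1 to 5 fell with another library left out, 1 of them without control replicate 1 or 2). Here 13 members reached an unadjusted p under 0.05, while DESeq2 called 1 higher and 10 lower and limma-voom 0 higher and 6 lower. NFKBIA, the inhibitor that holds NF-kB in the cytosol, stood at 17.2, 15.5 and 16.6 CPM in the siRNA 1 libraries, against 28.2, 29.2 and 31.4 CPM in the controls. NFKBIA fell by 0.85 ± 0.11 (adjusted p = 0.00212). CXCL8, interleukin 8, stood at 5.73, 6.50 and 7.27 CPM in the siRNA 1 libraries, against 13.3, 13.4 and 9.52 CPM in the controls. CXCL8 fell by 0.89 ± 0.16 (adjusted p = 0.0114; lost without control replicate 1 or 2, up to 0.0624). Of 31 tested interferon-stimulated genes, which transfected RNA can induce, 0 rose and 2 fell. These 6.45% called were near the 7.08% over all tested genes. An unadjusted p under 0.05 was reached by 7 members, DESeq2 called 1 higher and 4 lower and limma-voom 0 higher and 2 lower.

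Hypoxia genes and the factors above them were split. HIF1A, the oxygen-labile factor, stood at 81.7, 119 and 114 CPM in the siRNA 1 libraries, against 190.2, 195 and 197 CPM in the controls. HIF1A fell by 0.88 ± 0.12 (adjusted p = 0.00364; -0.73 without replicate 1, the lowest library). EPAS1, its relative HIF-2 alpha, stood at 114, 115 and 117 CPM in the siRNA 1 libraries, against 90.6, 90.5 and 89.5 CPM in the controls. EPAS1 rose by 0.36 ± 0.06 (adjusted p = 0.00884), a call lost without any 1 control (up to 0.0602). Of 26 tested genes of the list, both included, 2 rose and 6 fell (median -0.22; 2 and 9, median -0.13, without siRNA 1 replicate 1, and 3 fell and 0 rose without any 1 control). SLC2A3, a glucose transporter, stood at 62.2, 68.4 and 67.2 CPM in the siRNA 1 libraries, against 119, 120.2 and 119 CPM in the controls. SLC2A3 fell by 0.85 ± 0.06 (adjusted p = 0.000198). BNIP3, a mitophagy receptor, stood at 137, 162 and 157 CPM in the siRNA 1 libraries, against 243, 239 and 232 CPM in the controls. BNIP3 fell by 0.65 ± 0.08 (adjusted p = 0.00201). Cholesterol genes gave more falls than rises: of 29 tested, 1 rose and 7 fell (median -0.12; 1 and 10 without replicate 1, 2 to 5 fell with another library left out). SQLE, squalene epoxidase, stood at 81.7, 87.2 and 85.4 CPM in the siRNA 1 libraries, against 118, 115 and 119 CPM in the controls. SQLE fell by 0.47 ± 0.06 (adjusted p = 0.00322). STARD4, a sterol carrier, stood at 33.7, 73.97 and 66.2 CPM in the siRNA 1 libraries, against 140.5, 135 and 132 CPM in the controls. STARD4 fell by 1.23 ± 0.23 (adjusted p = 0.0114), with replicate 1 far below the other siRNA 1 libraries and a log2 change of -0.95 without it.

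Of 39 tested epithelial junction genes and regulators 10 rose and 1 fell (median 0.09, or 0.05 without siRNA 1 replicate 1; 10 and 2 without replicate 1, and 2 to 7 rose with another library left out), 21 of the 39 having a positive change. Of 18 tested keratins 1 rose and 2 fell (median -0.02; 1 and 5, median -0.22, without siRNA 1 replicate 1). Of the 9 colon epithelium markers 2 rose and 0 fell (median -0.12; 3 and 3 without siRNA 1 replicate 1, and 0 rose without any 1 control). Of 31 tested mesenchymal and matrix genes 1 rose and 6 fell (median -0.27; 1 and 10 without replicate 1, and 4 to 5 fell with another library left out). GRHL2, a factor that maintains epithelial gene expression, stood at 21.9, 20.1 and 19.7 CPM in the siRNA 1 libraries, against 12.01, 13.4 and 13.1 CPM in the controls. GRHL2 rose by 0.68 ± 0.11 (adjusted p = 0.00702). MARVELD3, a tight junction protein, stood at 24.9, 22.04 and 22.97 CPM in the siRNA 1 libraries, against 15.8, 14.2 and 14.03 CPM in the controls. MARVELD3 rose by 0.66 ± 0.10 (adjusted p = 0.00495). CLDN7, claudin 7, stood at 188, 162 and 165 CPM in the siRNA 1 libraries, against 107, 105 and 107 CPM in the controls. CLDN7 rose by 0.69 ± 0.13 (adjusted p = 0.0124; lost without any 1 control, up to 0.0653).

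TIMP2, an inhibitor of metalloproteinases, stood at 218, 212 and 214 CPM in the siRNA 1 libraries, against 356, 362 and 354 CPM in the controls. TIMP2 fell by 0.74 ± 0.05 (adjusted p = 0.000198). S100A4, a calcium-binding protein of motile cells, stood at 55.96, 41.6 and 44.1 CPM in the siRNA 1 libraries, against 88.4, 80.5 and 84.1 CPM in the controls. S100A4 fell by 0.84 ± 0.11 (adjusted p = 0.0024; -0.97 without replicate 1). COL12A1, a fibril-associated collagen, stood at 102, 110.3 and 112 CPM in the siRNA 1 libraries, against 167, 168 and 175 CPM in the controls. COL12A1 fell by 0.66 ± 0.10 (adjusted p = 0.005). The matrix member that rose was LAMA3, a chain of the epithelial laminin 332 (0.56 ± 0.08, adjusted p = 0.00353). Beside these, the fibroblast marker COL1A1 stood at 51.96, 45.9 and 46.8 CPM in the siRNA 1 libraries, against 60.3, 59.2 and 58.5 CPM in the controls and was not called (adjusted p = 0.0503), DCN was at 0 in 2 of the 3 siRNA 1 libraries, and PDGFRA, FAP and POSTN were at 0 in all 6. Of the 3 tested fibroblast markers, 0 rose and 1 fell in DESeq2, in limma-voom, with GC correction and without siRNA 1 replicate 1. With any other library left out, 0 of them fell. Of 16 tested integrins 0 rose and 3 fell, 8 had an unadjusted p under 0.05, and DESeq2 and limma-voom called 0 higher and 4 and 3 lower. Without any 1 control or siRNA 1 replicate 3, 0 integrins fell, and without siRNA 1 replicate 1, 5 did. ITGA3, which pairs with ITGB1 as a laminin receptor, stood at 668, 557 and 553 CPM in the siRNA 1 libraries, against 783, 806 and 818 CPM in the controls. ITGA3 fell by 0.44 ± 0.08 (adjusted p = 0.01), a call lost without any control or siRNA 1 replicate 3 (up to 0.0693).

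**Figure D4:**
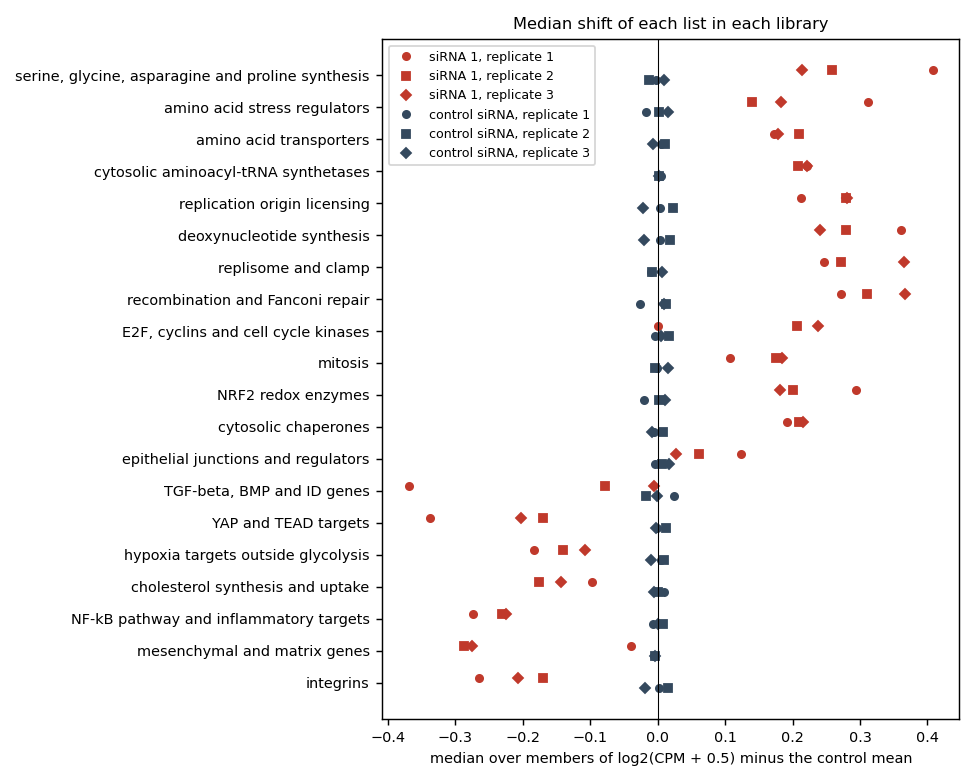
Median over the tested members of 20 lists of log2(CPM + 0.5) minus the control mean, on the x axis, for each siRNA 1 and control library. Replicate 1 with siRNA 1 lies furthest out for amino acid stress regulators and TGF-beta genes, and replicates 2 and 3 lie above it for mitosis, licensing and recombination genes.

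Of 27 tested BCL2 family and caspase genes, 2 rose and 2 fell (3 and 4 without siRNA 1 replicate 1). Thus 14.8% were called, against 7.08% of all tested genes. MCL1, an inhibitor of mitochondrial apoptosis, stood at 174, 209 and 214 CPM in the siRNA 1 libraries, against 338, 335 and 331 CPM in the controls. MCL1 fell by 0.75 ± 0.08 (adjusted p = 0.00108; -0.66 without replicate 1). Of 28 p53 target genes 6 rose and 2 fell (9 and 5 without siRNA 1 replicate 1, and 3 rose without control replicate 1 or 2). SFN, the G2 checkpoint protein 14-3-3 sigma, stood at 463, 361 and 373 CPM in the siRNA 1 libraries, against 224, 218 and 231 CPM in the controls. SFN rose by 0.83 ± 0.09 (adjusted p = 0.00118). CDKN1A, the inhibitor p21, stood at 601, 589 and 600.0 CPM in the siRNA 1 libraries, against 769, 759 and 782 CPM in the controls. CDKN1A fell by 0.37 ± 0.06 (adjusted p = 0.00756; not called without control replicate 3, 0.0553). CCNG1, cyclin G1, fell by 0.87 ± 0.13 (adjusted p = 0.005).

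Of 27 tested genes of the RNA exosome and nuclear decay 0 were called, against 7.08% of all tested genes. Of the 27, 5 had an unadjusted p under 0.05, DESeq2 called 2 higher and 0 lower, and limma-voom 1 higher and 0 lower. Without siRNA 1 replicate 1, 2 of these genes rose and 1 fell, and with GC correction 3 rose and 2 fell. The smallest adjusted p was that of DIS3L, a cytoplasmic exosome nuclease, at 27.2, 26.4 and 28.3 CPM in the siRNA 1 libraries, against 23.2, 22.6 and 19.8 CPM in the controls (0.32 ± 0.09, adjusted p = 0.052). Of 14 genes of the RNA interference machinery 0 were called, again against 7.08% of all tested genes. Of the 14, 5 had an unadjusted p under 0.05, DESeq2 called 1 higher, and limma-voom 0. Without siRNA 1 replicate 1, 1 of them fell, and with GC correction 1 rose and 3 fell. Of 24 tested genes around EXOSC10-AS1, DFFA, which encodes the inhibitor of the apoptotic DNase, rose (0.30 ± 0.07, adjusted p = 0.0233), MTOR rose (0.27 ± 0.07, adjusted p = 0.0464) and UBE4B, a ubiquitin ligase, fell (-0.26 ± 0.06, adjusted p = 0.0378). All 3 calls were lost without any 1 control or siRNA 1 replicate 3, and those of MTOR and UBE4B also without siRNA 1 replicate 2 (up to 0.122, 0.176 and 0.16).

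By gene type, 9.33% of 14538 protein-coding genes and 2.12% of 3436 long non-coding RNA genes were called, the median of the average log2 CPM being 4.69 and -0.85. Of the non-coding genes, 26 rose and 47 fell. MIR31HG, the host transcript of a microRNA, stood at 0.706, 0.779 and 1.08 CPM in the siRNA 1 libraries, against 3.07, 2.82 and 2.79 CPM in the controls. MIR31HG fell by 1.75 ± 0.30 (adjusted p = 0.00884). TSPOAP1-AS1 stood at 6.65, 8.15 and 7.09 CPM in the siRNA 1 libraries, against 16.7, 19.5 and 16.4 CPM in the controls. TSPOAP1-AS1 fell by 1.26 ± 0.12 (adjusted p = 0.000524). MOCS2-DT, divergent from MOCS2, stood at 5.08, 6.66 and 4.80 CPM in the siRNA 1 libraries, against 2.52, 2.93 and 2.38 CPM in the controls. MOCS2-DT rose by 1.08 ± 0.17 (adjusted p = 0.00528). The first of these has no listed overlapping gene, while TSPOAP1-AS1 lies antisense to RNF43 and 3 other genes and MOCS2-DT antisense to MOCS2.

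Another 7 genes had 0 counts in all 3 libraries of one group and at least 10 in each library of the other. AS3MT, arsenite methyltransferase, had 0, 0 and 0 counts with siRNA 1, against 79, 63 and 77 in the controls, at least 24.8-fold lower at a floor of 3 counts per library (adjusted p = 0.0253). BORCS7-ASMT, a read-through gene that shares exons with AS3MT, had 110, 142 and 123 counts with siRNA 1, against 0, 0 and 0 in the controls, at least 37.0-fold higher (adjusted p = 0.0411). These genes thus took opposite sides in the same libraries, and reads in their shared exons could have gone to either. Within the siRNA 2 group they also took opposite sides. AS3MT had 0, 57 and 43 counts there, and BORCS7-ASMT 49, 0 and 0 in the same order of libraries. The part of read assignment in these differences was not tested. KRT5, a basal keratin, had 21, 20 and 22 counts with siRNA 1, against 0, 0 and 0 in the controls, at least 6.22-fold higher (adjusted p = 0.0340). The pseudogene CYP4F23P had 0, 0 and 0 counts with siRNA 1, against 19, 11 and 24 in the controls, at least 6.07-fold lower (adjusted p = 0.00992). PLA1A, ENSG00000285547 and ENSG00000287725 were not called. The calls of AS3MT and BORCS7-ASMT were lost without any library but siRNA 1 replicate 1 (up to 0.0799 and 0.117), and that of KRT5 without any library (up to 0.108).

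Among the most abundant called genes, changes were under 0.6 on the log2 scale. MT-CO1, a subunit of cytochrome oxidase, stood at 19556, 19050.1 and 18645 CPM in the siRNA 1 libraries, against 16744, 16964 and 16989.7 CPM in the controls. MT-CO1 rose by 0.18 ± 0.04 (adjusted p = 0.0184). MT-ATP6, a subunit of the ATP synthase, stood at 5974, 6254 and 6130.4 CPM in the siRNA 1 libraries, against 6988, 7006 and 6769.8 CPM in the controls. MT-ATP6 fell by 0.18 ± 0.04 (adjusted p = 0.0177). Both calls were lost without any 1 control (up to 0.104 and 0.109), that of MT-CO1 also without siRNA 1 replicate 2 and that of MT-ATP6 without replicate 3. AKAP12, a scaffold for protein kinase A, stood at 2657, 2907 and 2893 CPM in the siRNA 1 libraries, against 4042, 4097 and 4079 CPM in the controls. AKAP12 fell by 0.53 ± 0.07 (adjusted p = 0.00261). SCD, stearoyl-CoA desaturase, stood at 1425, 1564 and 1577 CPM in the siRNA 1 libraries, against 1956, 1935 and 1927 CPM in the controls. SCD fell by 0.35 ± 0.05 (adjusted p = 0.00475). EZR, ezrin, which ties membranes to actin, stood at 1525, 1474 and 1468 CPM in the siRNA 1 libraries, against 1846, 1874 and 1833 CPM in the controls. EZR fell by 0.31 ± 0.04 (adjusted p = 0.00363).

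Promoters are shown for genes that rose within the cell cycle and amino acid lists, to let the letters be seen beside the values. RefSeq promoters (GRCh38.p14) of 12760 tested genes were searched in the 250 bases before the start, on both strands. The E2F motif TTTNGCGC was found in 17.1% of 76 promoters of tested licensing, replisome, deoxynucleotide and cell cycle genes, in 5 of the 25 that rose, and in 2.37% of all tested promoters (1.54% of the 27305 in the table). The motif TGATGNAA, to which ATF4 binds with a partner, was found in 11.5% of 61 promoters of the 4 amino acid lists, in 21.4% of the 28 that rose, and in 1.43% of all tested promoters (3.19% of the table). By list, 0 of 17 amino acid transporter promoters held it, and 0 of 12 deoxynucleotide promoters held the E2F motif. The antioxidant motif TGACNNNGC was found in 18.2% of 33 promoters of NRF2 and iron genes and in 12.1% of all tested promoters. No promoter held matches of different motifs that shared a base. These are matches of letters, not sites of binding, and the lists were made from genes known to be regulated by these factors. For CDC25A (chr3:48188418-48188537, minus strand), E2F2 (chr1:23531234-23531353, minus strand), ASNS (chr7:97872413-97872532, minus strand) and GOT1 (chr10:99430755-99430874, minus strand), 120 bases are printed with the motif in capitals, and E2F2 holds overlapping matches on both strands.
CDC25A: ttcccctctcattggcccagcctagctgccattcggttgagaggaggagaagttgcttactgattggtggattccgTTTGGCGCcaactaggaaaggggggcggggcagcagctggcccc
E2F2: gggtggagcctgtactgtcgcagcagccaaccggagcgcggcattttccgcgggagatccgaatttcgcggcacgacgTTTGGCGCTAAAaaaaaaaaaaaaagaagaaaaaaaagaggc
ASNS: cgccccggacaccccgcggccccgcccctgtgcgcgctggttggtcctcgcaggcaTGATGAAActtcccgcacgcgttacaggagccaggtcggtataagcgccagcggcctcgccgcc
GOT1: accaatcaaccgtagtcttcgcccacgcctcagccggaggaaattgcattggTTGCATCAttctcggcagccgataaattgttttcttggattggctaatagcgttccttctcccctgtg

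Of the tested genes, 4681 (22.4%) differed between siRNA 1 and siRNA 2, the other siRNA against EXOSC10-AS1, 12.3% being higher with siRNA 1 and 10.1% lower. The siRNA 2 libraries 2 and 3 have a GC trend of the opposite sign (correlations -0.534 and -0.538), and leaving one of them out left 2130 or 2189 calls. Against control, siRNA 2 gave 2872 calls (13.8%), 6.15% higher and 7.61% lower. The comparisons of each siRNA with control share the controls, so their values are given side by side. SCG2 changed by 1.45 ± 0.11 with siRNA 1 and by 1.70 ± 0.11 with siRNA 2 (adjusted p = 5.7e-05), and the difference of -0.25 ± 0.11 was not called (adjusted p = 0.112). HABP4 changed by 1.13 ± 0.09 with siRNA 1 and 1.12 ± 0.09 with siRNA 2, with a difference of 0.01 ± 0.09 (adjusted p = 0.966). CCND1 changed by -0.86 ± 0.09 with siRNA 1 and -0.87 ± 0.09 with siRNA 2 (difference 0.01 ± 0.09, adjusted p = 0.937), and SMAD3 by -0.77 ± 0.06 and -0.84 ± 0.06 in the same order (difference 0.07 ± 0.06, adjusted p = 0.424).

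For other genes named for siRNA 1 the siRNAs differed, and the genes set side by side here beyond the largest changes were chosen after their values were seen. S100A14 changed by 1.38 ± 0.07 with siRNA 1 and -0.23 ± 0.07 with siRNA 2, and the difference was 1.60 ± 0.07 (adjusted p = 6.85e-06). RPE65 changed by -1.93 ± 0.14 with siRNA 1 and 0.24 ± 0.13 with siRNA 2 (difference -2.17 ± 0.14, adjusted p = 3.99e-05). Of the genes named under the 4 amino acid lists by their siRNA 1 values, 10 were called in opposite directions with the siRNAs. The share of such calls over all tested genes was not counted. For example, ASNS changed by 1.04 ± 0.07 with siRNA 1 and -0.68 ± 0.07 with siRNA 2 (adjusted p = 0.000336), a difference of 1.73 ± 0.07 (adjusted p = 1.72e-06), and SLC7A5 by 0.75 ± 0.11 with siRNA 1 and -1.36 ± 0.11 with siRNA 2 (adjusted p = 0.000137), a difference of 2.10 ± 0.11 (adjusted p = 1.48e-05). Of the 16 amino acid stress regulators, 11 were higher with siRNA 1 than with siRNA 2 and 0 lower. HIF1A changed by -0.88 ± 0.12 with siRNA 1 and 0.41 ± 0.12 with siRNA 2 (adjusted p = 0.0547), a difference of -1.29 ± 0.13 (adjusted p = 0.000217), and RRM2 by 0.63 ± 0.08 with siRNA 1 and 0.04 ± 0.08 with siRNA 2 (adjusted p = 0.788), a difference of 0.59 ± 0.08 (adjusted p = 0.000994).

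**Figure D5:**
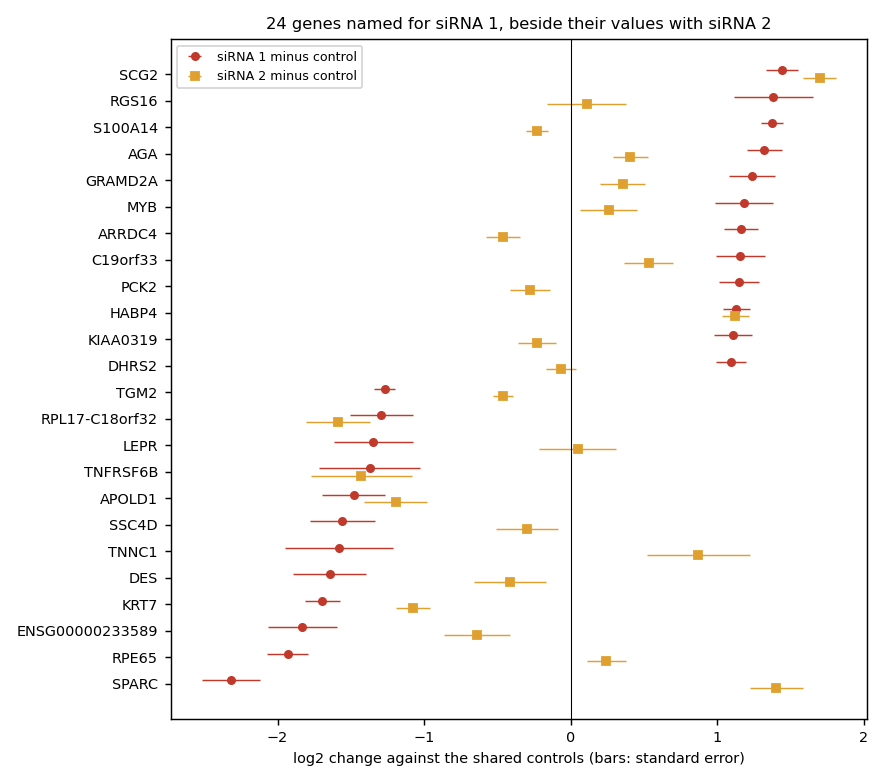
Log2 changes against the shared controls (x axis, bars are the approximate standard errors) of the 12 largest rises and 12 largest falls with siRNA 1, with siRNA 1 as circles and siRNA 2 as squares. SCG2 and HABP4 have like values with both siRNAs, while S100A14, RPE65 and SPARC do not.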

How the data were processed

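RNA was sequenced from 9 libraries in 3 groups, and the 6 libraries with siRNA 1 or control siRNA are reported. The authors deposited raw counts per Ensembl gene, per the labels, and the submitters' processing notes name the build hg19. How reads were aligned, counted, annotated and assigned by strand is not stated by the labels. All 9 libraries were fitted with edgeR 4.0.16 (R 4.3.3) by the quasi-likelihood test with TMM factors, after filterByExpr (10 counts, 15 in total), which kept 99.96% of counts, and p-values were adjusted by Benjamini-Hochberg over all tested genes. The 9 libraries share 1 estimate of spread (biological coefficient of variation 20.01%). DESeq2 1.42.0, limma 3.58.1, other scale factors and filters, GC correction (lowess span 0.3), the replicate block and leaving out each library were alternatives. Scripts were tested on simulated data. Some items are not reported here. Members and gene lists were chosen with earlier results of these data known. Named genes are EXOSC10-AS1 and EXOSC10, the 12 largest rises and 12 largest falls that passed the stated conditions, the 6 most abundant calls in each direction, up to 5 genes per list with the smallest adjusted p, up to 4 non-coding genes in each direction, and genes at 0 in one group. Same-numbered siRNA 1 and siRNA 2 libraries deviated together (correlations 0.367, 0.209 and 0.217), but so did siRNA 1 replicate 2 with siRNA 2 replicate 3 (0.196) and siRNA 1 replicate 3 with siRNA 2 replicate 2 (0.214). siRNA 1 replicates 2 and 3 differed by a mean chi-square of 9.28 per gene, and replicate 1 from them by 80.3 and 77.3.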

Additional observations from a re-analysis of the deposited data

Results flagged for a closer look

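For 22 of the 305 named genes with a value against siRNA 2, the siRNAs were called against the shared controls in opposite directions, and the difference between the siRNAs was itself called. Most genes were named by their siRNA 1 values, and the share of opposite calls over all tested genes was not counted. Of the 22, 17 were higher and 5 lower with siRNA 1 than with siRNA 2, and JUN had the highest adjusted p of the differences (adjusted p = 0.000583 in edgeR's test). GC trends of opposite sign in siRNA 1 replicate 1 and siRNA 2 replicates 2 and 3 lie beside these differences, and their part was not tested. ARRDC4 stood 1.62 log2 units higher with siRNA 1 than with siRNA 2 (adjusted p = 4.54e-05, edgeR quasi-likelihood test), being 1.16 ± 0.11 with siRNA 1 and -0.46 ± 0.11 with siRNA 2 against control. SPARC differed by -3.72 log2 units between siRNA 1 and siRNA 2 (adjusted p = 1.48e-05), being -2.32 ± 0.20 with siRNA 1 and 1.40 ± 0.18 with siRNA 2 against control. AKAP12 differed by -0.82 log2 units between siRNA 1 and siRNA 2 (adjusted p = 0.000109), being -0.53 ± 0.07 with siRNA 1 and 0.29 ± 0.07 with siRNA 2 against control. In the amino acid lists the log2 difference, siRNA 1 minus siRNA 2, was 1.08 for ATF3, 2.26 for CHAC1, 0.62 for ATF4, 1.73 for ASNS, 0.91 for PSAT1, 1.40 for SLC3A2, 0.70 for SLC7A1, 2.10 for SLC7A5, 1.18 for SLC1A4 and 1.09 for AARS1. For other named genes it was 0.77 for TXNRD1, 0.90 for EPAS1, 1.31 for CLDN7, 1.01 for LAMA3, 0.94 for JUN and 0.71 for MACROH2A1. With siRNA 1 lower, the difference was -1.69 on the log2 scale for TSPOAP1-AS1, -1.41 for CCNG1 and -1.03 for DTX3L.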

How the results depend on the processing

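The count of 1478 genes (777 higher, 701 lower) was between 1413 and 1762 under 6 libraries alone, other scale factors, limma-voom, a stricter filter or the replicate block (1582), and the median change of all genes stayed within -0.02 to 0.01 under other scalings. DESeq2 called 2943 (1550 higher, 1393 lower), GC correction 4106 (1962 and 2144), GC correction with the replicate block 3794 (1830 and 1964), and GC correction without siRNA 1 replicate 1, chosen after seeing the data, 3704 (1756 and 1948). With no low-count filter 969 were called (532 and 437), more genes being tested. Leaving out 1 library gave 439 to 2538 calls, 234 to 1337 higher and 205 to 1201 lower, and the cause of the differences between these settings was not tested. Whether control and siRNA 1 libraries of the same number were paired is not stated by the labels. The correlations of their deviations were -0.0204, -0.0218 and 0.0425, and 3 such values cannot decide it. Against siRNA 2, where the block gave 5150, leaving out 1 library gave 2130 to 5843 calls, and the block changed the call of 12 of 305 named genes, none of them given against siRNA 2 in the text. EXOSC10-AS1 was not called under any setting that gave it a value (2 gave none, the 6 libraries alone and the stricter filter), with adjusted p of 0.0802 to 0.469 (NA in DESeq2). Among the named genes, direction turned only for genes not called. Of the 1130 list members plotted, 1 was called in only 1 of the fits with and without siRNA 1 replicate 1 and had the opposite sign in the other. Over the omission of 1 library, EXOSC10 ranged over -0.0041 (without siRNA 1 replicate 1) to 0.11, DCN over -7.01 (without siRNA 1 replicate 2, where siRNA 1 is at 0 and the fitted size is no bound) to 0.26 (without control replicate 1), PDGFRB over -0.32 to 0.23 (without control replicate 3; 0.04 without siRNA 1 replicate 3), GFAP over -0.57 (without siRNA 1 replicate 3) to 1.02, and SNAP25 over -0.091 (without siRNA 1 replicate 2; -0.0056 without control replicate 1) to 0.12. With GC correction and without siRNA 1 replicate 1, EXOSC10 was at -0.041.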

Other observations

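The counts that follow are to be set beside the shares over all tested genes, 3.72% higher and 3.36% lower. Among groups not described above, 14 of 14 tested chaperonin and prefoldin genes gave 2 rises and 0 falls (1 rise without any 1 control). The 11 tested mitochondrial chaperones gave 3 rises and 0 falls (median 0.25). Without siRNA 1 replicate 1, 5 mitochondrial chaperones rose and 0 fell, and 1 to 2 rose with another library left out. Of 28 tested splicing regulators 0 rose and 3 fell (median -0.18; 1 and 5, median -0.09, without siRNA 1 replicate 1), 13 had an unadjusted p under 0.05, DESeq2 called 0 higher and 7 lower and limma-voom 0 higher and 3 lower. With a library other than siRNA 1 replicate 1 left out, 0 to 2 splicing regulators fell. Of 36 tested lysosomal genes 5 rose and 4 fell (6 and 5 without siRNA 1 replicate 1). With another library left out, 2 to 5 lysosomal genes rose and 1 to 2 fell. Of 22 WNT target and stem cell genes 4 rose and 3 fell (4 and 3 without siRNA 1 replicate 1). With another library left out, 3 of these rose and 0 to 2 fell, with 0 falls without any 1 control.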
